A study of Rattus norvegicus with 10 samples.

Results

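Chemokines and chemokine receptors were followed through the transcriptome of the rat dentate gyrus 3 weeks after traumatic brain injury (TBI). The group held 9 genes: the ligands *Cxcl16*, *Cx3cl1*, *Cxcl12*, *Cxcl14*, *Cxcl10*, *Cxcl13*, *Ccl2* and *Ccl3*, and the receptor *Cxcr4*. The group was chosen by the bulk TBI and sham levels of *Cxcl16*, which was among the leading genes of that comparison, so the bulk values of *Cxcl16* are given as a description with no test. Of these genes, 8 were among the 14166 genes of the deposited bulk table, where *Ccl2* was not listed, and all 9 were among the 25399 genes of the nucleus matrices.

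Chemokines are small secreted or membrane-held proteins that steer the movement of cells through G protein-coupled receptors. *Cxcl16* and *Cx3cl1* (fractalkine) encode ligands made as membrane proteins on a mucin stalk, from which the sheddases encoded by *Adam10* and *Adam17* release a soluble form. In the brain, fractalkine from neurons is read by microglia through *Cx3cr1*, and CXCL12 acts through *Cxcr4*, also in the placement of new granule neurons of the dentate gyrus. *Cxcl10*, *Ccl2* and *Ccl3* encode inducible ligands known from inflamed tissue.

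All rats were male, young adult and of the Sprague Dawley strain, and the ipsilateral dentate gyrus was cut out by hand. TBI was a lateral fluid percussion injury (LFPI), a fluid pulse onto the intact dura through a craniectomy made days earlier. Sham rats had the craniectomy, anesthesia and analgesic without the pulse, and the naïve rat had no surgery. For bulk RNA-seq there were 3 sham and 3 TBI rats with 1 library each. Single-nucleus RNA-seq (snRNA-seq) had 2 TBI rats, 1 sham rat and 1 naïve rat, with the sham and naïve rats pooled as the control. Both TBI and sham rats therefore carried a craniectomy, and only male rats were sampled.

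Bulk libraries held 25121893 to 44649404 estimated counts. The surgeries fell in 2 periods, with sham 1, sham 2 and TBI 1 operated in spring and sham 3, TBI 2 and TBI 3 in autumn. Summed levels of 5 markers of dentate granule neurons, the principal cells of the region, ranged from 89.9 to 472 CPM (counts scaled to the same total per library) over the 6 bulk libraries, with overlapping groups. The summed level of 8 oligodendrocyte markers was 18133 CPM in sham 2 against 5284 to 8283 CPM in the other libraries. The nucleus libraries kept 11285 to 16931 nuclei with medians of 1647 to 2652 unique molecular identifiers (UMIs, each standing for 1 captured RNA molecule). Pairs of these libraries shared 45 to 60 barcodes and 0 identical profiles.

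The 250 bases before the annotated start of the 3 ligands whose TBI libraries all lay above the sham libraries are shown here, 5′ to 3′ on the gene's strand, from RefSeq on build GRCr8. The study's own build for the nuclei was Rnor_6.0, and only sequence was taken from GRCr8. Capitals mark matches, on either strand, to 4 patterns of factors known to act on inducible chemokine genes. The patterns were GAAANNGAAA (ISRE-type), GGGAANNNCC (NF-kB-type), TGANTCA (AP-1-type) and TTCNNNGAA (GAS-type).
Cxcl16, chr10:55669951-55670200, minus strand: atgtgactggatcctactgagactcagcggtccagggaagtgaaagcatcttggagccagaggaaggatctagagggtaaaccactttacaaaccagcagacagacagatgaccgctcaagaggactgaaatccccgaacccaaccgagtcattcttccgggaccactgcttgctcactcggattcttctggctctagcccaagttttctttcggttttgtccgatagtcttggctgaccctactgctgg
Cxcl10, chr14:15988816-15989065, plus strand: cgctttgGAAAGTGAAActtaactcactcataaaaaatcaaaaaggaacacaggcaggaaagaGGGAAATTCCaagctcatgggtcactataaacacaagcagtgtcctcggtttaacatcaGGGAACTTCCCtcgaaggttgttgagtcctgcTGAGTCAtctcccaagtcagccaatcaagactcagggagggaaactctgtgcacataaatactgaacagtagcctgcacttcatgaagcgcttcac
Cxcl13, chr14:13917921-13918170, minus strand: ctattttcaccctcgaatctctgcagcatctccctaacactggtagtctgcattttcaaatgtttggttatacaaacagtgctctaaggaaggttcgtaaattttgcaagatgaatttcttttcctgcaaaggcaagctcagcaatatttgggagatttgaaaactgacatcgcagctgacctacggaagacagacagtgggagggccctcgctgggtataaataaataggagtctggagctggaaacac

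The *Cxcl10* window held 1 ISRE-type match (GAAAGTGAAA, 243 to 234 bases before the start), NF-kB-type matches at 187 to 178 (GGGAAATTCC) and at 128 to 119 (GGGAACTTCC, which overlaps a match on the other strand at 127 to 118), and 1 AP-1-type match (TGAGTCA, 96 to 90). The windows of *Cxcl16* and *Cxcl13* held none of these letters. Of 33469 windows of the same length, 3.41% held the ISRE-type pattern, 5.07% the NF-kB-type, 6.34% the AP-1-type and 7.67% the GAS-type. Of the 7 members with a window in the table (all but *Ccl2* and *Ccl3*), only *Cxcl14* held another match, an AP-1-type TGAGTCA at 99 to 93. A match is a description of the letters and not of binding.

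In bulk tissue some ligands differed several-fold between TBI and sham and others had near-equal levels. *Ccl3*, given below, was of neither kind, with a higher mean in TBI and overlapping libraries. *Cxcl16* was 3.99 times as high in TBI by group means, *Cxcl10* 6.34 times and *Cxcl13* 5.66 times, and in each of these 3 genes every TBI library lay above every sham library. The abundant ligands *Cx3cl1*, *Cxcl12* and *Cxcl14* and the receptor *Cxcr4* had Log2FC between -0.09 and 0.31 with overlapping libraries. By edgeR's quasi-likelihood test with Benjamini-Hochberg adjustment over all genes, 0 of the 7 members tested passed a false discovery rate (FDR) of 0.01, as did 0 (0%) of the 14166 genes, of which 1360 (9.6%) had an unadjusted p under 0.05. Of the 7 members, *Cxcl10* and *Cxcl13* had an unadjusted p under 0.05, and DESeq2 passed 0 of the 7 beside 169 (1.19%) of all genes, and limma 0 of each. Leaving out *Cxcl16*, whose separation the choice of the group fixed, 2 of the 7 other members had every TBI library above every sham library, beside 10.2% of all genes. These 2, *Cxcl10* and *Cxcl13*, had most of their counts in TBI, and the table had been filtered on totals and variance. Their separation is therefore a description.

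*Cxcl16* encodes the ligand of CXCR6. Its level, as CPM scaled by edgeR's TMM factors, was 2.85, 4.66 and 3.38 in sham 1, 2 and 3 and 9.48, 17.97 and 16.04 in TBI 1, 2 and 3. These rest on 75, 125 and 145 estimated counts in sham and on 236, 553 and 463 in TBI. The lowest TBI library was above the highest sham library, and TBI 1, the spring library, was the lowest of the TBI libraries. The means were 3.63 ± 0.931 CPM in sham and 14.5 ± 4.45 CPM in TBI (SD, n = 3 each), with a Log2FC of 2.00 ± 0.30 (SE). Within spring (2 sham, 1 TBI) the difference was 1.39 and within autumn (1 sham, 2 TBI) 2.38, as means of the deposited log2 CPM. This scale, used for every difference within a period, carries no TMM factors, so it can depart slightly from the TMM-scaled levels. It lay between 1.79 without TBI 2 and 2.23 without TBI 1. In bulk tissue more cells of a type and more RNA per cell cannot be told apart.

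**Figure D1:**
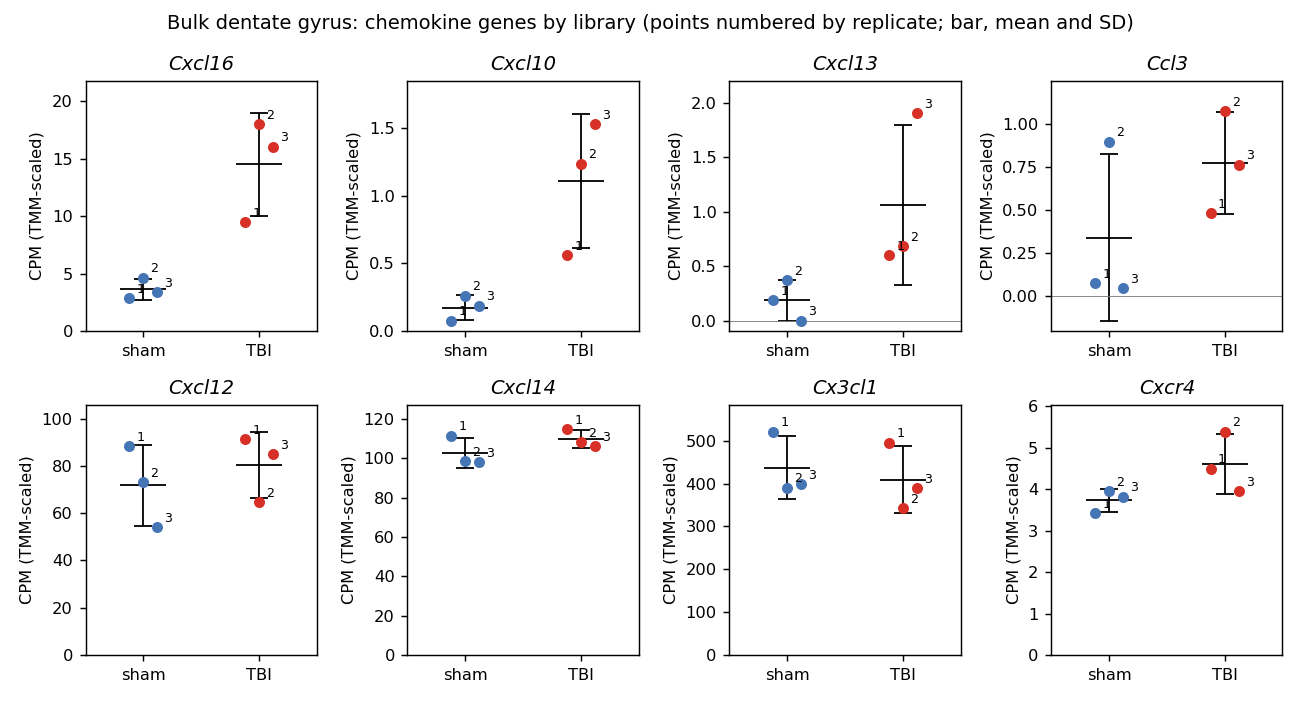
Level of the 8 chemokine genes of the bulk table in each library, as TMM-scaled CPM on linear axes, with points numbered by replicate and bars for mean and SD (n = 3 sham in blue, 3 TBI in red). The red points of Cxcl16, Cxcl10 and Cxcl13 lie wholly above the blue ones, and those of the other 5 genes overlap them.

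*Cxcl10*, an interferon-inducible ligand of CXCR3, was at 0.08, 0.26 and 0.19 CPM in sham 1, 2 and 3 and at 0.56, 1.23 and 1.52 CPM in TBI 1, 2 and 3. These levels rest on 2, 7 and 8 counts in sham and on 14, 38 and 44 counts in TBI. The groups did not overlap. The Log2FC was 2.63 ± 0.64, with FDR = 0.238 by edgeR and FDR = 0.0363 by DESeq2, and it lay between 2.31 and 2.97 with each library left out. Within spring the difference was 1.86 and within autumn 2.87.

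*Cxcl13*, a ligand that draws B cells through CXCR5, was at 0.19, 0.37 and 0 CPM in sham and at 0.60, 0.68 and 1.91 CPM in TBI, from 5, 10 and 0 counts against 15, 21 and 55. The groups did not overlap, and TBI 3 was the highest library. Its Log2FC was 2.58 ± 1.05 with FDR = 0.493 by edgeR, and 1.86 without TBI 3. Within spring its difference was 1.14 on the log2 scale, and in autumn the single sham library held 0 counts. *Ccl3*, encoding an inflammatory ligand of CCR1, was at 0.08, 0.90 and 0.05 CPM in sham and at 0.48, 1.07 and 0.76 CPM in TBI. The sham 2 library lay among the TBI libraries. The Log2FC of *Ccl3* was 1.24 ± 1.02 (edgeR, FDR = 0.771), and 3.63 without sham 2, a value that rests on 2 counts in each remaining sham library. Within spring the difference of *Ccl3* was 0.79 and within autumn 4.04.

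*Cx3cl1*, the neuronal ligand of the microglial receptor CX3CR1, was at 521, 390 and 398 CPM in sham and at 496, 343 and 390 CPM in TBI. The libraries overlapped, and the Log2FC of -0.09 ± 0.17 did not pass (edgeR, FDR = 0.931). *Cxcl12*, the ligand of CXCR4 and ACKR3, was at 88.2, 73.2 and 54.1 CPM in sham and at 91.4, 64.6 and 84.8 CPM in TBI (Log2FC 0.16 ± 0.20, edgeR, FDR = 0.873). *Cxcl14*, a ligand made in the brain mainly by astrocytes and interneurons, was at 112, 98.5 and 98.0 CPM in sham and at 115, 108 and 106 CPM in TBI. Its Log2FC was 0.10 ± 0.10 (edgeR, FDR = 0.827), and sham 1 lay among the TBI libraries. Within spring and autumn the differences, in deposited log2 CPM without TMM factors, were 0.16 and -0.06 for *Cx3cl1*, 0.21 and 0.51 for *Cxcl12*, and 0.15 and 0.19 for *Cxcl14*, so that of *Cx3cl1* had opposite signs in the 2 periods.

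*Cxcr4*, the receptor of CXCL12, was at 3.42, 3.95 and 3.83 CPM in sham and at 4.50, 5.39 and 3.95 CPM in TBI. TBI 3 lay just under sham 2, so the groups met at their edges, and the Log2FC of 0.31 ± 0.22 did not pass (edgeR, FDR = 0.726). In deposited log2 CPM without TMM factors it was 0.31 within spring and 0.33 within autumn. The other receptor of CXCL12, *Ackr3*, which takes up the ligand without G protein signaling, had a Log2FC of 0.04 ± 0.25.

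Of the matched receptors and sheddases, *Cx3cr1* had separated libraries, at 17.8, 21.0 and 17.9 CPM in sham and 32.5, 56.0 and 24.8 CPM in TBI. Its Log2FC was 1.001 ± 0.28 (edgeR, FDR = 0.293), with 0.77 in spring, 1.12 in autumn and 0.58 without TBI 2. *Cx3cr1* was thus higher in each TBI library while the libraries of its ligand overlapped. Of the 6 matched receptors and sheddases in the bulk table, 1 was separated in this way, beside 10.2% of all genes. It is therefore given as a description. The sheddase genes *Adam10* and *Adam17* had Log2FC of 0.01 ± 0.18 and 0.19 ± 0.23 with overlapping libraries. *Ccr1* had a Log2FC of 1.26 ± 1.13, with sham 2 inside the TBI range. *Cxcr6*, *Cxcr3*, *Cxcr5* and *Ccr2* were not listed in the bulk gene table.

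Across the chemokine family, 16 of 36 ligands, 6 of 18 receptors and 4 of 5 atypical receptors were in the bulk table. Of the 15 ligands other than *Cxcl16*, 13 had a positive and 2 a negative Log2FC, with a median of 0.46 beside -0.003 over all genes. Every TBI library lay above every sham library in 6 of these 15 ligands, in 2 of the 6 receptors and in 0 of the 4 atypical receptors, beside 10.2% of all genes. These counts come from the same filtered table and are a description. The Log2FC was positive in all 6 receptors and all 4 atypical receptors of the table. Besides the genes above, *Ccl19* and *Pf4* were separated with an unadjusted p under 0.05. *Ccl19*, encoding a ligand of CCR7, was at 0.99, 0.86 and 0.54 CPM in sham and at 1.37, 1.43 and 8.42 CPM in TBI, with TBI 3 far above the rest, and its Log2FC went from 2.25 to 0.83 without that library (edgeR, FDR = 0.385 with all libraries). *Pf4*, encoding a platelet and macrophage chemokine, was at 0.84, 0.41 and 0.82 CPM in sham and at 1.25, 1.49 and 2.32 CPM in TBI (Log2FC 1.28 ± 0.45, edgeR, FDR = 0.389).

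Markers of some other cells were also higher in TBI, and those of others were not. Summed over 9 microglial markers (a list that includes *Cx3cr1*), levels were 278, 276 and 293 CPM in sham and 470, 863 and 481 CPM in TBI, with 9 of 9 higher and a median Log2FC of 1.07. Over 7 astrocyte markers they were 5521, 5687 and 5004 CPM against 7642, 10533 and 7973 CPM, with 6 of 7 higher and a median Log2FC of 0.24. *Gfap*, an intermediate filament gene of reactive astrocytes, made up most of this gap with a Log2FC of 1.66, while *Slc1a3*, *Aldoc* and *Slc4a4* were at 0.12, 0.06 and -0.08. Over 6 fibroblast markers they were 37.8, 80.2 and 44.7 CPM against 178, 82.0 and 981 CPM, and over 4 markers of border macrophages, the macrophages of meninges and vessels, 9.74, 11.9 and 9.98 CPM against 16.03, 17.3 and 45.3 CPM. Of 8 oligodendrocyte, 6 glutamatergic and 5 GABAergic markers 0 were higher, with median Log2FC of -0.65, -0.28 and -0.25. TBI 3, highest in *Cxcl10*, *Cxcl13*, *Ccl19* and *Pf4*, was also highest in the fibroblast and border macrophage sums. The same library was highest in the pericyte sum (271 CPM, beside 98.5 to 127 CPM) and the endothelial sum (331 CPM, beside 171 to 199 CPM). TBI 2, highest in *Cxcl16* and *Cx3cr1*, was highest in the microglial sum. Of B cell markers 0 of 5 were in the table. The part of these cell types in the chemokine differences was not tested.

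In nuclei the question was which cells held the chemokine transcripts and whether their levels differed there between TBI and control. Clustering of 55124 nuclei gave 10 classes named by fixed markers and called granule-like, astrocyte-like and so on. They ranged from 29437 granule-like nuclei to 435 endothelial-like and 136 pericyte-like nuclei, and 4199 nuclei stayed unnamed. In 3 of the 4 granule-like clusters the markers of glutamatergic neurons, to which granule neurons belong, scored above the granule markers, which led all other classes. *Cxcl12* and *Cxcl14* were among the 2000 genes the clustering used, so differences between classes are given as descriptions. Tests ran on UMI sums per rat. Of 43 tested pairs of a member and a class, 0 passed FDR 0.01 by edgeR, as did 0 (0%) of all genes in every class. DESeq2 also passed 0 pairs, beside 0.37% of all genes in astrocyte-like, 0.0733% in granule-like and 0% in the other classes and clusters, and 0.00556% over all kept nuclei. Of these pairs 16 had a positive and 27 a negative difference. At an unadjusted p under 0.05 by edgeR there were 2, both of *Cxcl16*, in astrocyte-like and granule-like nuclei, where 11.2% and 1.44% of all genes had one.

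*Cxcl12* was highest in endothelial-like nuclei, at 1037 and 1793 CPM in TBI 1 and 2, 1582 CPM in the sham and 1706 CPM in the naïve rat, from 276 to 646 UMIs. A UMI of *Cxcl12* was found in 77.0% of the endothelial-like nuclei (median depth 1871 UMIs) and in 9.16% of the glutamatergic-like nuclei (median depth 3438 UMIs). The endothelial-like level, with a mean of 1529 ± 340 CPM (SD, n = 4 rats), was 15.1 times that of granule-like and 8.47 times that of pericyte-like nuclei, and each rat's endothelial-like value was above every value of any other class. Because granule-like nuclei were so many, they held 58.2% of all *Cxcl12* UMIs and the endothelial-like nuclei 14.1%. Microglia-like nuclei were at 124, 87.6, 112 and 111 CPM in TBI 1, TBI 2, sham and naïve, so the granule-like level (mean 101 CPM) was not above theirs (mean 109 CPM). A UMI was found in 20.4% of granule-like nuclei (median depth 2185 UMIs) and in 10.2% of microglia-like nuclei (median depth 727 UMIs). Both means were above the 27.1 CPM of glutamatergic-like nuclei. The difference between TBI and control did not pass in endothelial-like nuclei (-0.23 ± 0.36 log2, edgeR, FDR = 0.999). In granule-like nuclei the levels were 113, 74.2, 78.6 and 140 CPM in TBI 1, TBI 2, sham and naïve, and the groups overlapped (-0.31 ± 0.34 log2, edgeR, FDR = 0.9998).

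**Figure D2:**
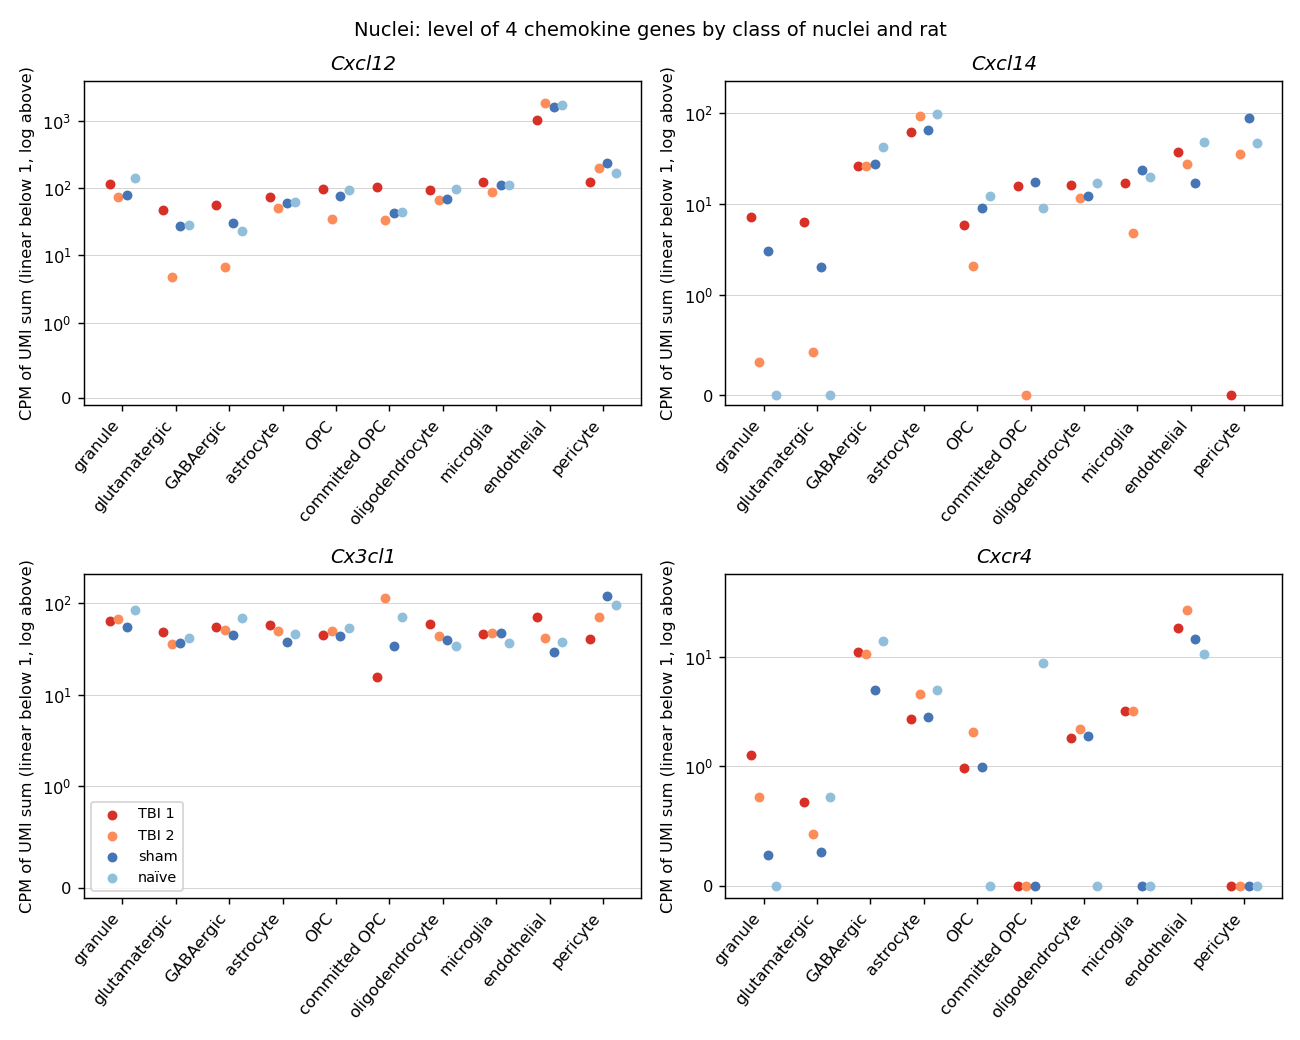
Level of Cxcl12, Cxcl14, Cx3cl1 and Cxcr4 in the 10 named classes of nuclei, as CPM of the UMI sum of each rat on an axis that is linear below 1 and logarithmic above, with 1 point per rat. Cxcl12 stands apart in endothelial-like nuclei (1037 to 1793 CPM), Cxcl14 has its highest class mean in astrocyte-like nuclei (the 3 GABAergic-like clusters are pooled), and Cx3cl1 lies between 40.8 and 81.5 CPM in the mean of every class.

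*Cxcl14* was at 62.2, 92.5, 65.9 and 99.5 CPM in astrocyte-like nuclei of TBI 1, TBI 2, sham and naïve, the highest mean of the 10 classes (80.02 CPM), and these nuclei held 60.8% of its UMIs. A UMI of it was found in 18.3% of astrocyte-like nuclei (median depth 1717 UMIs) and in 0.972% of glutamatergic-like nuclei. Among the GABAergic-like clusters, cluster 13, led by *Npas1*, *Adarb2* and *Vip*, was at 62.5, 79.9, 70.2 and 141 CPM. Its mean of 88.5 CPM was above the astrocyte-like mean, which only the level of the naïve rat exceeded. Compared within each rat, cluster 13 was above astrocyte-like nuclei in 3 of the 4 rats, by 62.5 against 62.2 CPM in TBI 1. The other GABAergic-like clusters, 11 (led by *Sst*) and 14 (led by *Lamp5*), had means of 3.76 and 6.38 CPM. The interneuron signal of *Cxcl14* therefore lay mostly in cluster 13, at a level near that of astrocyte-like nuclei. TBI and control overlapped in astrocyte-like nuclei (-0.17 ± 0.26 log2, edgeR, FDR = 0.858) and in cluster 13 (-0.64 ± 0.36 log2, edgeR, FDR = 0.99999), where the naïve rat was highest.

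*Cx3cl1* was spread over all classes, with class means from 40.8 CPM in glutamatergic-like to 81.5 CPM in pericyte-like nuclei, the latter from 13 UMIs. Granule-like nuclei held 61.4% of its UMIs, at 63.7, 67.1, 55.8 and 84.0 CPM in TBI 1, TBI 2, sham and naïve. Microglia-like nuclei, known for the receptor and not the ligand, were at 46.0, 47.0, 47.2 and 36.4 CPM, inside the range of the neuronal classes. This class pools cluster 6 (median depth 681 UMIs) with cluster 17 (median depth 2145.5 UMIs), where granule markers scored second. Cluster 6 was at 49.4, 54.2, 51.3 and 7.20 CPM and cluster 17 at 42.6, 38.9, 40.7 and 66.4 CPM. The naïve rat held 2 UMIs in cluster 6 and 18 in cluster 17. The part of background in these levels was not tested. A UMI was found in 14.3% of granule-like nuclei (median depth 2185 UMIs) and in 4.58% of microglia-like nuclei (median depth 727 UMIs). In granule-like nuclei the naïve rat was highest and sham lowest, with both TBI rats between them (-0.16 ± 0.25 log2, edgeR, FDR = 0.9998). Both TBI rats were above both controls in astrocyte-like (0.31 ± 0.21 log2), oligodendrocyte-like (0.37 ± 0.32 log2) and endothelial-like nuclei (0.77 ± 0.52 log2), as were 24.9%, 22.3% and 17.1% of all genes there. The means of these 3 classes, 47.9, 44.5 and 44.9 CPM, lay inside or just above the microglia-like range of 36.4 to 47.2 CPM. Both were below in pericyte-like nuclei, as were 14.4% of genes.

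*Cxcr4* was sparse, with 270 UMIs in all, of which 40.7% were in GABAergic-like and 23.0% in astrocyte-like nuclei. In the *Sst*-led cluster 11 the 4 rats held 23, 19, 10 and 27 UMIs (TBI 1, TBI 2, sham, naïve), or 18.6, 21.8, 8.64 and 23.2 CPM, a range that placed both TBI rats between the controls (0.24 ± 0.57 log2, edgeR, FDR = 0.9998). The mean of this cluster was 18.1 ± 6.56 CPM (SD, n = 4 rats). Endothelial-like nuclei had nearly the same mean, 17.9 ± 7.23 CPM (SD, n = 4 rats), from 5, 8, 6 and 2 UMIs, the highest of the 10 classes when the GABAergic-like clusters are pooled. Of their nuclei 4.83% held a UMI, against 0.119% of granule-like nuclei (mean 0.565 CPM). The unnamed cluster 15 (804 nuclei), where granule markers scored highest and astrocyte markers next, held 3, 2, 2 and 3 UMIs of *Cxcr4*. Its mean was 8.998 CPM, and 1.24% of its nuclei held a UMI. Whether this cluster belongs to the granule neurons was not tested. Over all kept nuclei the levels were 2.58, 2.72, 1.25 and 2.04 CPM, both TBI rats above both controls as in 23.3% of all genes, and the difference was 0.61 ± 0.41 log2 (edgeR, FDR = 0.986). *Ackr3* had its highest class mean in oligodendrocyte precursor-like nuclei, at 13.7, 26.6, 16.9 and 16.1 CPM.

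*Cxcl16*, high in the bulk TBI libraries, was rare in nuclei, with 129 UMIs in 55124 nuclei. The 4 rats held 12 and 15 UMIs in TBI 1 and 2, 34 in sham and 68 in naïve, or 0.37, 0.58, 0.96 and 1.95 CPM. Both TBI rats were below both controls, as in 10.2% of all genes, and the naïve rat was above the sham rat. The difference was -1.71 ± 0.56 log2 (edgeR, unadjusted p = 0.0187, FDR = 0.986, with 3.38% of all genes under 0.05), the opposite sign to the bulk libraries, and it lay between -2.13 and -1.09 with each rat left out. The difference between bulk and nuclei was not tested, and the bulk comparison held no naïve rat.

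By class, microglia-like nuclei had 1, 7, 2 and 8 UMIs of *Cxcl16* in TBI 1, TBI 2, sham and naïve, or 1.07, 5.58, 3.15 and 14.6 CPM, with overlapping groups (-1.29 ± 1.04 log2, edgeR, FDR = 0.99985). Their mean of 6.09 CPM was the highest of the classes with more than 2 UMIs. Astrocyte-like nuclei had 3, 1, 5 and 19 UMIs (-2.19 ± 0.93 log2, edgeR, FDR = 0.442), and granule-like nuclei 1, 2, 13 and 17 UMIs (-2.74 ± 0.90 log2, edgeR, FDR = 0.9998). Glutamatergic-like nuclei had 3, 3, 8 and 4 UMIs, and oligodendrocyte-like nuclei 1 UMI in all. Both TBI rats were below both controls in these astrocyte-like, granule-like and glutamatergic-like sums, as were 17.6%, 8.71% and 8.49% of all genes there. The receptor gene *Cxcr6* had 0 UMIs in all 55124 nuclei, which by counting error alone allows a share of up to 0.00544% of nuclei with a UMI. This limit leaves aside entries stored with the value 0, which are described below.

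**Figure D3:**
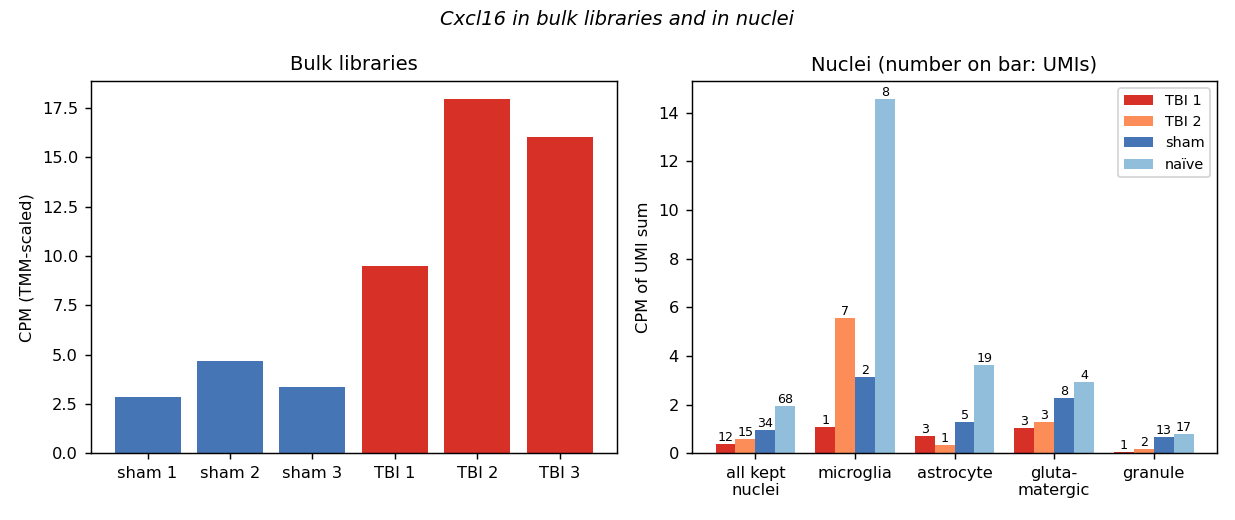
Level of Cxcl16 in the 6 bulk libraries (left, TMM-scaled CPM) and in the 4 nucleus libraries over all kept nuclei and in 4 classes (right, CPM of the UMI sum, with the number of UMIs on each bar), both from 0. The TBI bars lie above sham in bulk (9.48 to 17.97 against 2.85 to 4.66 CPM) and below the controls over all kept nuclei (0.37 and 0.58 against 0.96 and 1.95 CPM).

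The inducible ligands were nearly absent from nuclei, and the few UMIs lay mostly in 1 rat. *Cxcl10* had 0, 19, 1 and 1 UMIs in TBI 1, TBI 2, sham and naïve, spread over 6 in granule-like, 4 in GABAergic-like and 4 in microglia-like nuclei and fewer elsewhere. *Ccl2*, encoding a ligand that draws monocytes through CCR2, had 0, 9, 0 and 1 UMIs. *Ccl3* had 2, 6, 2 and 1 UMIs and *Cxcl13* had 0, 3, 0 and 1 UMIs. TBI 2 held the most UMIs of each of these 4 genes, and TBI 1 held none of *Cxcl10*, *Ccl2* or *Cxcl13*, so the TBI rats did not move together. The differences over all kept nuclei, 3.38 ± 1.70 log2 for *Cxcl10* and 3.13 ± 1.83 log2 for *Ccl2*, rest on TBI 2 (edgeR, FDR = 0.986 for each). *Pf4*, from the wider family, had 3, 18, 2 and 2 UMIs with the same rat highest.

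The receptor *Cx3cr1* was at 175, 237, 165 and 466 CPM in the microglia-like nuclei of TBI 1, TBI 2, sham and naïve, from 105 to 298 UMIs. The naïve rat was highest and both TBI rats lay between the controls (-0.63 ± 0.43 log2, edgeR, FDR = 0.99985). Over all kept nuclei it was at 9.60, 18.6, 6.38 and 10.4 CPM (0.67 ± 0.41 log2, edgeR, FDR = 0.986), and microglia-like nuclei were 5.91% and 9.17% of the nuclei of TBI 1 and 2 beside 3.85% of both the sham and the naïve nuclei. *Cxcr3* had 0 UMIs in all rats, *Cxcr5* had 4 to 14 and *Ccr1* 2 to 6 UMIs per rat. *Adam10* was found with 1974 to 2424 UMIs per rat (0.00 ± 0.14 log2) and *Adam17* with 392 to 713 (-0.29 ± 0.24 log2).

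The matrices also hold entries that are stored with the value 0, and their share differed between rats, at 1.63% of stored entries in TBI 1, 27.4% in TBI 2, 11.1% in sham and 15.5% in naïve. Whether they set the levels below was not tested, and the values with and without them are given side by side. In granule-like nuclei *Cxcl14* had 120, 4, 59 and 0 UMIs in TBI 1, TBI 2, sham and naïve beside 9, 177, 98 and 203 stored zeros. Counting each stored zero of *Cxcl14* as 1 UMI, over unchanged UMI totals, turned 7.22, 0.33, 2.99 and 0 CPM into 7.76, 14.9, 7.96 and 9.57 CPM. Because these totals leave out the stored zeros of all genes, the raised values are overstated, most in TBI 2. They therefore do not rank the rats. Log2 differences with stored zeros count those of every gene. By counting error alone, the 0 UMIs in 7265 nuclei of the naïve rat allow a share of up to 0.0413%. This limit leaves aside the 203 stored zeros of *Cxcl14* in those nuclei, so it does not bound the share if they stand for UMIs. In glutamatergic-like nuclei *Cxcl12* had 135, 11, 97 and 39 UMIs beside 6, 120, 45 and 34 stored zeros. Again over unchanged UMI totals, 47.4, 4.77, 27.6 and 28.7 CPM became 49.5, 56.8, 40.5 and 53.7 CPM. The low *Cxcl12* value of TBI 2 stood beside the most stored zeros of the 4 rats. In granule-like nuclei *Cxcr4* had 21, 9, 5 and 0 UMIs beside 2, 5, 10 and 20 stored zeros, and its difference went from 2.88 to 0.49 log2. By those UMIs the TBI rats each lay above both controls, as in 19.6% of all genes in granule-like nuclei. For *Cxcl16* there were 0, 11, 4 and 17 stored zeros over all kept nuclei, and its difference stayed negative (-1.54 log2).

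**Figure D4:**
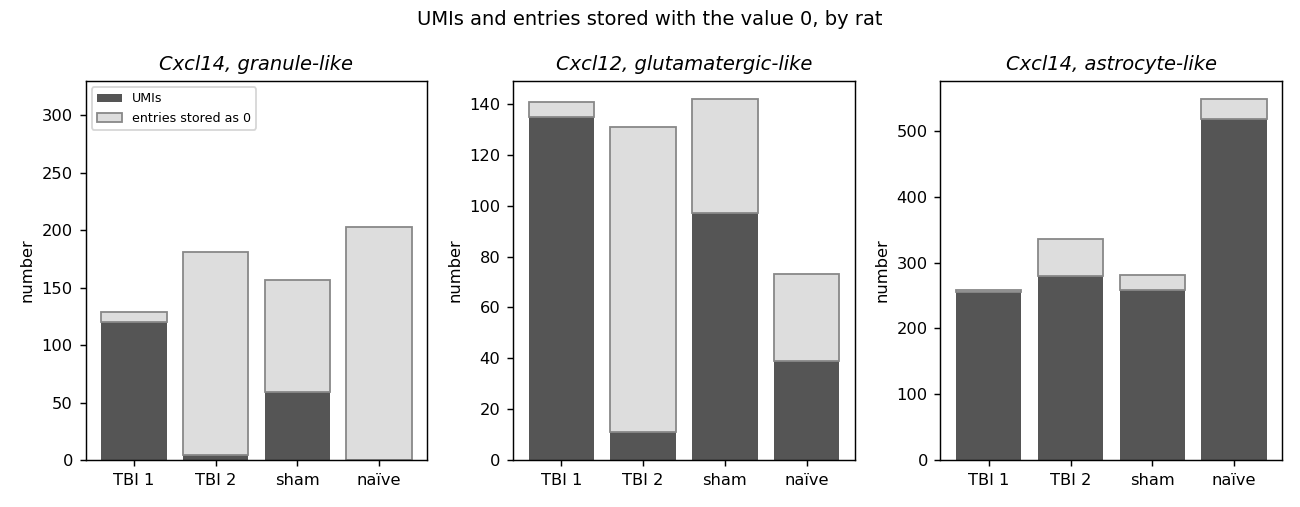
Number of UMIs (dark) and of matrix entries stored with the value 0 (light, stacked on top) in each rat, for Cxcl14 in granule-like, Cxcl12 in glutamatergic-like and Cxcl14 in astrocyte-like nuclei, on linear axes from 0. TBI 1 is nearly all dark in every panel, whereas TBI 2 (4 UMIs and 177 stored zeros) and naïve (0 and 203) are nearly all light for Cxcl14 in granule-like nuclei.

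The genes whose level ran most alike over the 10 named classes were found for the 4 members with at least 200 UMIs, among 12981 genes, as Pearson's r of log2(CPM + 1) averaged over the rats. For *Cxcl12* they were *Prom1* (r = 0.965), *Apcdd1* (0.962) and *Sox17* (0.960), and for *Cxcl14* they were *Fabp5* (0.960), *Id2* (0.933) and *Tubb2a* (0.922). For *Cx3cl1* they were *Ift22* (0.939), *U2surp* (0.922) and *Arnt* (0.898), and for *Cxcr4* they were *Ndufa8* (0.925), *Nub1* (0.910) and *Eprs* (0.903). The profile of *Cxcr4* rests on few UMIs in several classes, such as 4 in oligodendrocyte precursor-like and 5 in glutamatergic-like nuclei. The classes share libraries and differ in depth, so these values are a description.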

How the data were processed

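In bulk, kallisto (version not given in the sources used here) gave the estimated counts of 31715 transcripts that the authors deposited without normalization. A second deposited table holds log2 CPM of 14166 genes, from which features without annotation, with low totals or with low variance had been removed. The design foresaw gene sums of the transcript counts. Because no table used here pairs transcripts with genes, estimated counts per gene were worked back from the log2 values and library totals and rounded, and 10096 genes (71.3%) equalled a single transcript within 0.001. Entrez identifiers were matched to symbols through RefSeq (13778 of 14166 genes). The surgery period was read from the authors' dates.

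For nuclei the authors ran Cell Ranger on Rnor_6.0 over exons and introns and deposited UMI counts. The study's filters (500 UMIs, 300 features, 0.8 log10 genes per UMI, at most 5% mitochondrial and 2% ribosomal UMIs) left 55124 of 55863 nuclei. They were clustered in Seurat 5.3.0 (2000 variable features, 25 principal components, CCA integration, resolution 0.6). A cluster was named from at least 3 fixed markers whose median log2 score led that of every other class by 0.5. The glutamatergic markers, which granule neurons share, were left out of this and named only clusters without another name. Clusters led by mitochondrial genes stayed unnamed, and names may differ from the study's. The GABAergic-like clusters were tested singly, because 1 of them was led by more markers of another class than of its own. No doublet caller was run, and nuclei with the most UMIs were left out as an alternative.

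edgeR 4.0.16 (quasi-likelihood, TMM, FDR 0.01 by Benjamini-Hochberg over all genes) was the main test, in nuclei on UMI sums per rat of genes with at least 10 UMIs. DESeq2 1.42.0 and limma 3.58.1 were alternatives, and the edgeR and DESeq2 steps were tested on simulated data. R 4.3.3 was used. The p-values measure the spread between these rats, and shares of nuclei cover counting error only. The members, lists and tests were chosen with earlier results of these data known. The named genes are the 9 members, their matched receptors and sheddases, and family genes with separated bulk libraries and an unadjusted p under 0.05. The result of 1 further gene is not reported here.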

Additional observations from a re-analysis of the deposited data

Results flagged for a closer look

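*Cxcl16* had opposite signs in the 2 assays. It was higher in TBI in bulk libraries (Log2FC 2.00, with no overlap of the libraries), the comparison by which the group was chosen. Over all kept nuclei *Cxcl16* was lower (-1.71 log2), from 12 and 15 UMIs in TBI against 34 in sham and 68 in naïve. Both TBI rats were below both controls, as in 10.2% of all genes, and the bulk comparison held no naïve rat. The difference between the assays was not tested.

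*Cx3cl1* had both TBI rats above both controls in astrocyte-like (0.31 log2), oligodendrocyte-like (0.37 log2) and endothelial-like nuclei (0.77 log2), and both below in pericyte-like nuclei (-0.84 log2, from 13 UMIs). Both TBI rats were above both controls in 24.9%, 22.3% and 17.1% of all genes in the first 3 classes, and both below in 14.4% in the last. The means of the first 3 classes, 47.9, 44.5 and 44.9 CPM, lay inside or just above the 36.4 to 47.2 CPM of microglia-like nuclei, which pool clusters 6 and 17. The part of background in these levels was not tested. The difference between these classes was not tested.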

How the results depend on the processing

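Of 96 bulk Log2FC values of the 8 members under alternatives, 92 kept their direction. *Cx3cl1* turned to 0.00045 with the surgery period as covariate and ranged from -0.25 to 0.055 with each library left out, and *Cxcl12* from -0.019 to 0.34. Genes passing numbered 0 by edgeR, 169 by DESeq2, 475 with the study's adjustment (which passed 1 tested member, *Cxcl10*) and 1 with the replicate number as a block. Same-numbered libraries deviated with r of 0.352, 0.173 and -0.03, beside -0.276 to 0.109 in the other pairs. So few values cannot settle whether the replicate numbers pair the rats, and sham 2 and TBI 2 were operated in different periods. The replicate block passed 0 members. Members with every TBI library above sham, *Cxcl16* included, were 3 to 5 with each library left out. The count was 5 without sham 2, when *Ccl3* and *Cxcr4* also separated. The share of all genes was not counted with a library left out, and fewer libraries separate more easily. The change in count is therefore not read as a result. The cause of these changes was not tested.

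In nuclei, 125 of 132 values of the 11 differences followed kept their direction. With each rat left out, the values that turned ranged from -2.86 to 0.10 log2 for *Cxcl16* in microglia-like nuclei, from -0.49 to 0.16 for *Cxcl14* in astrocyte-like nuclei (0.08 without TBI 1), from -0.45 to 0.20 for *Cx3cl1* and from -0.68 to 0.21 for *Cxcl12* in granule-like nuclei, from -0.67 to 0.12 for *Cxcl12* in endothelial-like nuclei, and from -0.31 to 1.18 for *Cxcr4* in cluster 11. Over all 43 pairs, 463 of 523 values kept their sign. Pairs passing were 0 to 1 with each rat left out: without TBI 1, *Cxcl12* in GABAergic-like cluster 14 reached -3.97 log2 against a lone TBI rat with many stored zeros, assumed to vary like the controls. With the GABAergic-like clusters pooled, the class with the highest level stayed the same for 4 of 4 members at resolutions 0.3 and 1 and at 1000 UMIs. Stored zeros counted as 1 UMI and leaving out glial clusters with granule transcripts were alternatives chosen after seeing the data, as were sums over all kept nuclei. No paired analysis was possible because the nuclei controls were 1 sham and 1 naïve rat that share no second number with the TBI rats.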

Other observations

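*Cxcr1*, a receptor gene best known from neutrophils, was outside the rule for named genes and was picked after its values were seen. Over all kept nuclei it had 199 and 34 UMIs in TBI 1 and 2, 23 in sham and 28 in naïve, or 6.12, 1.30, 0.65 and 0.80 CPM, so TBI 1 held most of them. Both TBI rats were above both controls, as in 23.3% of all genes, and the difference was 2.27 ± 0.72 log2 (edgeR, FDR = 0.986), between 0.77 and 2.98 with each rat left out. In astrocyte-like nuclei it was 3.01 ± 0.79 log2 from 41 UMIs (edgeR, FDR = 0.243), and in granule-like nuclei 2.07 ± 0.79 log2 from 170 UMIs (edgeR, FDR = 0.9998). Both TBI rats were also above both controls in these classes, as in 24.9% and 19.6% of all genes there, and in oligodendrocyte precursor-like nuclei, from 11 UMIs and as in 18.9% of all genes. In glutamatergic-like nuclei the groups overlapped (1.62 ± 1.47 log2 from 41 UMIs, edgeR, FDR = 0.99995). In the bulk libraries the Log2FC of *Cxcr1* changed sign, from -0.23 without sham 2 to 1.07 without sham 3.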
